A study of Mus musculus with 7 samples.

Results

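The 8 genes examined here control mitochondrial biogenesis, and they were searched for binding of the clock factors BMAL1 and REV-ERBα and of RNA polymerase II (RNAP2) in mouse skeletal muscle. They are the coactivator genes *Ppargc1a* and *Ppargc1b*, the estrogen-related receptor genes *Esrra*, *Esrrb* and *Esrrg*, and the nuclear-encoded regulators *Nrf1*, *Gabpa* and *Tfam*. The genes were chosen by function, with earlier results of these data known, out of 21938 protein-coding genes. The peaks counted for them are all that overlap the gene body or lie within 10 kb of an annotated transcription start site (TSS), the window of the gene, in any of the 6 deposited peak lists. These were 272 of 527903 peaks. BMAL1 had 18 of 34737 peaks in replicate 1 and 90 of 177669 in replicate 2. The REV-ERBα lists gave 15 of 28881 and 15 of 29934, and the RNAP2 lists 49 of 87861 and 85 of 168821.

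The muscle was gastrocnemius, a mixed hindlimb muscle made mostly of fast fibers, and the assay ChIP-seq, in which an antibody pulls down a protein with the DNA it sits on and that DNA is sequenced. All mice were wild-type C57BL/6J males of 5 months kept in alternating light and dark on standard chow, with no transgene, gene deletion or treatment in any group. The authors call these mice wild type, and elsewhere name Cre-negative littermates from a cross with a floxed (loxP-flanked) *Bmal1* line as controls. Whether the floxed allele was present here is not stated. BMAL1 and RNAP2 were precipitated at ZT 4 (hours after lights on) and REV-ERBα, with a mixture of antibodies, at ZT 8, with 2 replicates per factor. Input DNA was the control for peak calling, and 1 input sample is among those labelled. The labels do not say whether a replicate is 1 animal or a pool. Each factor was mapped at 1 time, so time and factor cannot be told apart. The lists hold peaks, not reads, so the depth at a peak is unknown, no counting interval can be given, and the values below are descriptions of 2 lists per factor without a test. In whole muscle, binding in fewer nuclei and weaker binding in every nucleus cannot be told apart.

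PGC-1α and PGC-1β, encoded by *Ppargc1a* and *Ppargc1b*, do not bind DNA themselves. They dock on transcription factors, among them ERRα and ERRγ, and raise transcription of genes for oxidative phosphorylation and fatty acid oxidation. NRF1 and GABP, whose DNA-binding subunit is GABPα, act on promoters of nuclear genes for respiratory subunits and on *Tfam*, whose product packages mitochondrial DNA and starts its transcription. In muscle, PGC-1α is induced by exercise and cold through CREB and MEF2 family factors. BMAL1 with CLOCK activates genes through the E-box CACGTG, and REV-ERBα represses genes through AGGTCA elements, the core that ERR also reads.

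The sequences before the start sites are shown first. They come from the GRCm38 genome, the same assembly as mm10, and each runs 5′ to 3′ on the strand of its gene over the 250 bases before an annotated start. Capitals mark the element named. *Ppargc1a* has an upstream start and an inner start, which lies in an intron of the longest transcript. The inner one is the better known promoter and holds the cyclic AMP response element TGACGTCA, bound by CREB, which begins 83 bases before the start at 51553922. The NRF1 core GCATGCGC begins 29 bases before the outermost *Esrra* start. *Nrf1* is shown because its start carried the strongest RNAP2 peak of the 8 genes. The *Nrf1* stretch and that of the upstream *Ppargc1a* start hold none of the 8 motifs listed below.
*Ppargc1a* upstream start (chr5:51567727-51567976, minus strand): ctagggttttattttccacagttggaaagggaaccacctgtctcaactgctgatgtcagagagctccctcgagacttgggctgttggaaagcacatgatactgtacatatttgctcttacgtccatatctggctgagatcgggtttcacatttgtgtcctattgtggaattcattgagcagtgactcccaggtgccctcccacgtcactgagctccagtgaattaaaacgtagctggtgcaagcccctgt
*Ppargc1a* inner start (chr5:51553923-51554172, minus strand): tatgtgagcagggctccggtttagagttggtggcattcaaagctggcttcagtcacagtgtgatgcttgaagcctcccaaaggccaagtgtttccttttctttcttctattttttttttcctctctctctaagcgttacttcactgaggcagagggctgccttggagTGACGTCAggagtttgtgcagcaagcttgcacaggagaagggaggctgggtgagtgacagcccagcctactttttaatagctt
*Esrra* (chr19:6921814-6922063, minus strand): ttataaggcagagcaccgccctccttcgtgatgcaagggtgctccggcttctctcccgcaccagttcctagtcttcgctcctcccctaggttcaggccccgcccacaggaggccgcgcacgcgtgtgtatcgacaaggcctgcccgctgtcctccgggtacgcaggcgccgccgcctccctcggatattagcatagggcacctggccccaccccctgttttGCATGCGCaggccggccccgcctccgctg
*Nrf1* (chr6:30047738-30047987, plus strand): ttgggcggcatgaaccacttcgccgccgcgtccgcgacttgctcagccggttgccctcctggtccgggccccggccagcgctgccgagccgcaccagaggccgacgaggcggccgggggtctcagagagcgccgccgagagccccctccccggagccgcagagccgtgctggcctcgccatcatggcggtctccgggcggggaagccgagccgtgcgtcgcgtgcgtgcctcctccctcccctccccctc

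For *Tfam* a stretch of 30 bases around the GABP site CCGGAAGT is given, which begins 47 bases before the RefSeq start at 71238044.
*Tfam* GABP letters (chr10:71238073-71238102, minus strand): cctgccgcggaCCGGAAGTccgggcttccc
RefSeq (GRCm38) gave promoters of 300 bases, from 250 before to 50 after a start, for 7 of the 8 genes, 12 promoters in all; none was matched for *Ppargc1b*. The 8 motifs below were searched on both strands. None of the 12 held the E-box CACGTG, which 7.15% of 32851 RefSeq promoters held, and none held AGGTCA, which 16.3% held. The longer elements that contain AGGTCA, the ERR element TNAAGGTCA (1.28% of promoters) and the REV-ERB direct repeat DR2 (0.00913%), were therefore absent too. The NRF1 core was found in 1 of the 12, at *Esrra* (2.71% of promoters), the GABP site in 1, at *Tfam* (3.89%), and the MEF2 consensus in 2, at *Esrrg* and at an inner start of *Nrf1* (3.19%). TGACGTCA (1.79%) was in none of the 12, which include the upstream but not the inner start of *Ppargc1a*.

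The lists differed in length and strength before any gene was considered. BMAL1 replicate 2 held 177669 peaks with a median −log10 p of 1.87, against 34737 with a median of 2.48 in replicate 1, and the values of most peaks fall on a few steps: 87 of the 90 BMAL1 peaks at the 8 genes in replicate 2 had a pair of −log10 p and fold that at least 100 peaks of the list share. In replicates 1 and 2, 92 and 36 peaks of BMAL1 had a q-value of at most 0.05, compared with 324 and 423 of REV-ERBα and 10992 and 3622 of RNAP2. The antibodies did recover clock genes in both replicates. *Per1*, a core clock gene, had a BMAL1 region with −log10 p of 36.5 and 21.2, *Dbp*, a clock output gene, 14.1 and 9.7, and *Nr1d1*, the gene of REV-ERBα, 20.4 and 31.6. The strongest REV-ERBα regions had 5.4 and 7.7 at *Per1*, 10.6 and 11.8 at *Dbp*, and 6.2 and 5.4 at *Nr1d1*. For the tissue, RNAP2 regions in both replicates lay at 8 of 8 skeletal muscle genes such as *Acta1* and *Ckm*, and at 1 of 8 genes of other cells. That gene was the fibroblast collagen gene *Col1a1* (16.05 and 5.52), while *Alb*, *Apoa1*, *Adipoq*, *Plin1*, *Ptprc*, *Snap25* and *Pecam1* had no region in both.

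No BMAL1 peak and no REV-ERBα peak of replicate 1 overlapped one of replicate 2 at any of the 8 genes. A region was counted as present in both replicates where peaks of both lists overlapped by at least 1 bp. Across the genome there were 2742 such regions for BMAL1 and 1263 for REV-ERBα. BMAL1 regions lay in the window of 6.81% of protein-coding genes and REV-ERBα regions in that of 4.44%, and read against these shares 0 of 8 genes does not set the 8 apart. The window lengths matter for this reading. Among genes with windows under 50 kb, like *Esrra*, *Tfam* and *Gabpa*, 3.36% had a BMAL1 region and 3.86% a REV-ERBα region. For windows of 50 to 200 kb, like *Ppargc1a*, *Ppargc1b*, *Esrrb* and *Nrf1*, the shares were 11.8% and 4.98%, and for windows over 200 kb, like *Esrrg*, 32.6% and 10.3%. Within 1 kb of a TSS, 0 of the 8 genes had a region, against 0.843% of genes for BMAL1 and 2.00% for REV-ERBα. With a q-value of 0.05 in both replicates the shares of all genes were 0.109% and 1.37%, and again none of the 8 was among them.

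RNAP2 had a region in both replicates at 6 of the 8 genes, against 41.1% of all protein-coding genes. Where summits had to lie within 200 bp of each other, *Ppargc1a*, *Ppargc1b* and *Gabpa* no longer counted, and 3 of 8 genes were left, close to the 35.6% of all genes. By window length, the 6 genes counted without this demand were 2 of 3 genes under 50 kb (background 36.4%), 3 of 4 genes of 50 to 200 kb (50.7%) and the 1 gene over 200 kb (62.8%). Within 1 kb of a TSS a region lay at 5 of 8 genes, *Ppargc1a*, *Ppargc1b*, *Esrra*, *Nrf1* and *Gabpa* (30.5%), and with a q-value of 0.05 in both replicates at 3 of 8, *Ppargc1b*, *Nrf1* and *Gabpa* (18.9%). *Esrrb* and *Tfam* had no RNAP2 region in both replicates.

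**Figure D1:**
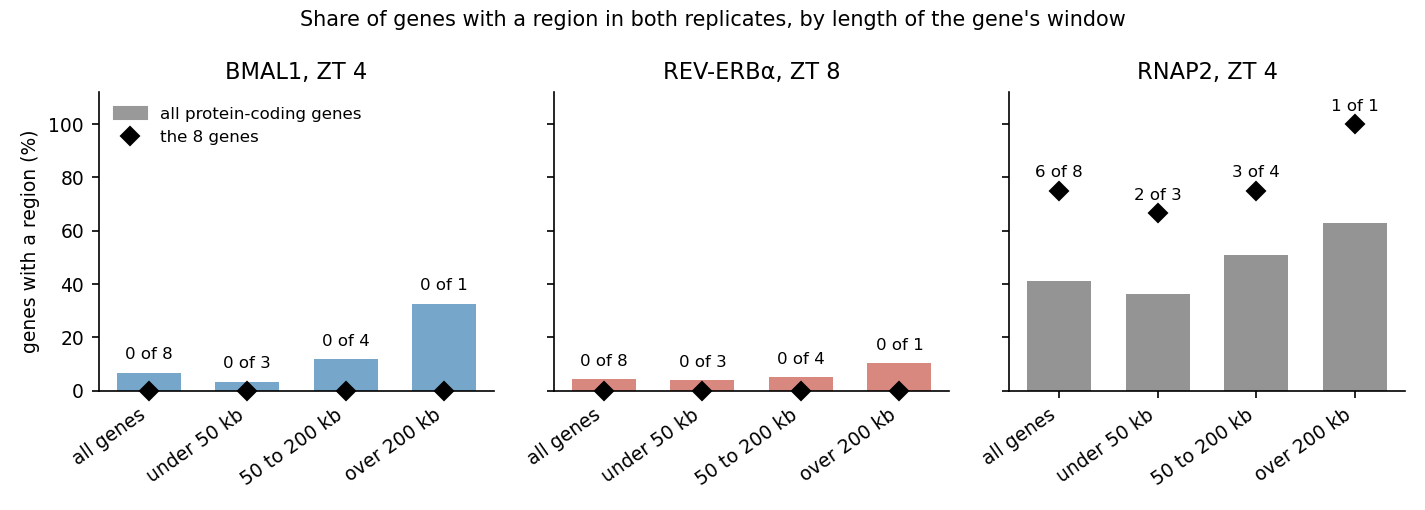
Share of genes (%) with a region present in both replicates for each factor, for all genes and by the length of the gene's window (body plus 10 kb around each TSS); bars are all protein-coding genes and diamonds the 8 genes, with their counts. The diamonds are at 0 in both clock panels and above the bars in the RNAP2 panel, with 6 of 8 genes against 41.1%.

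**Figure D2:**
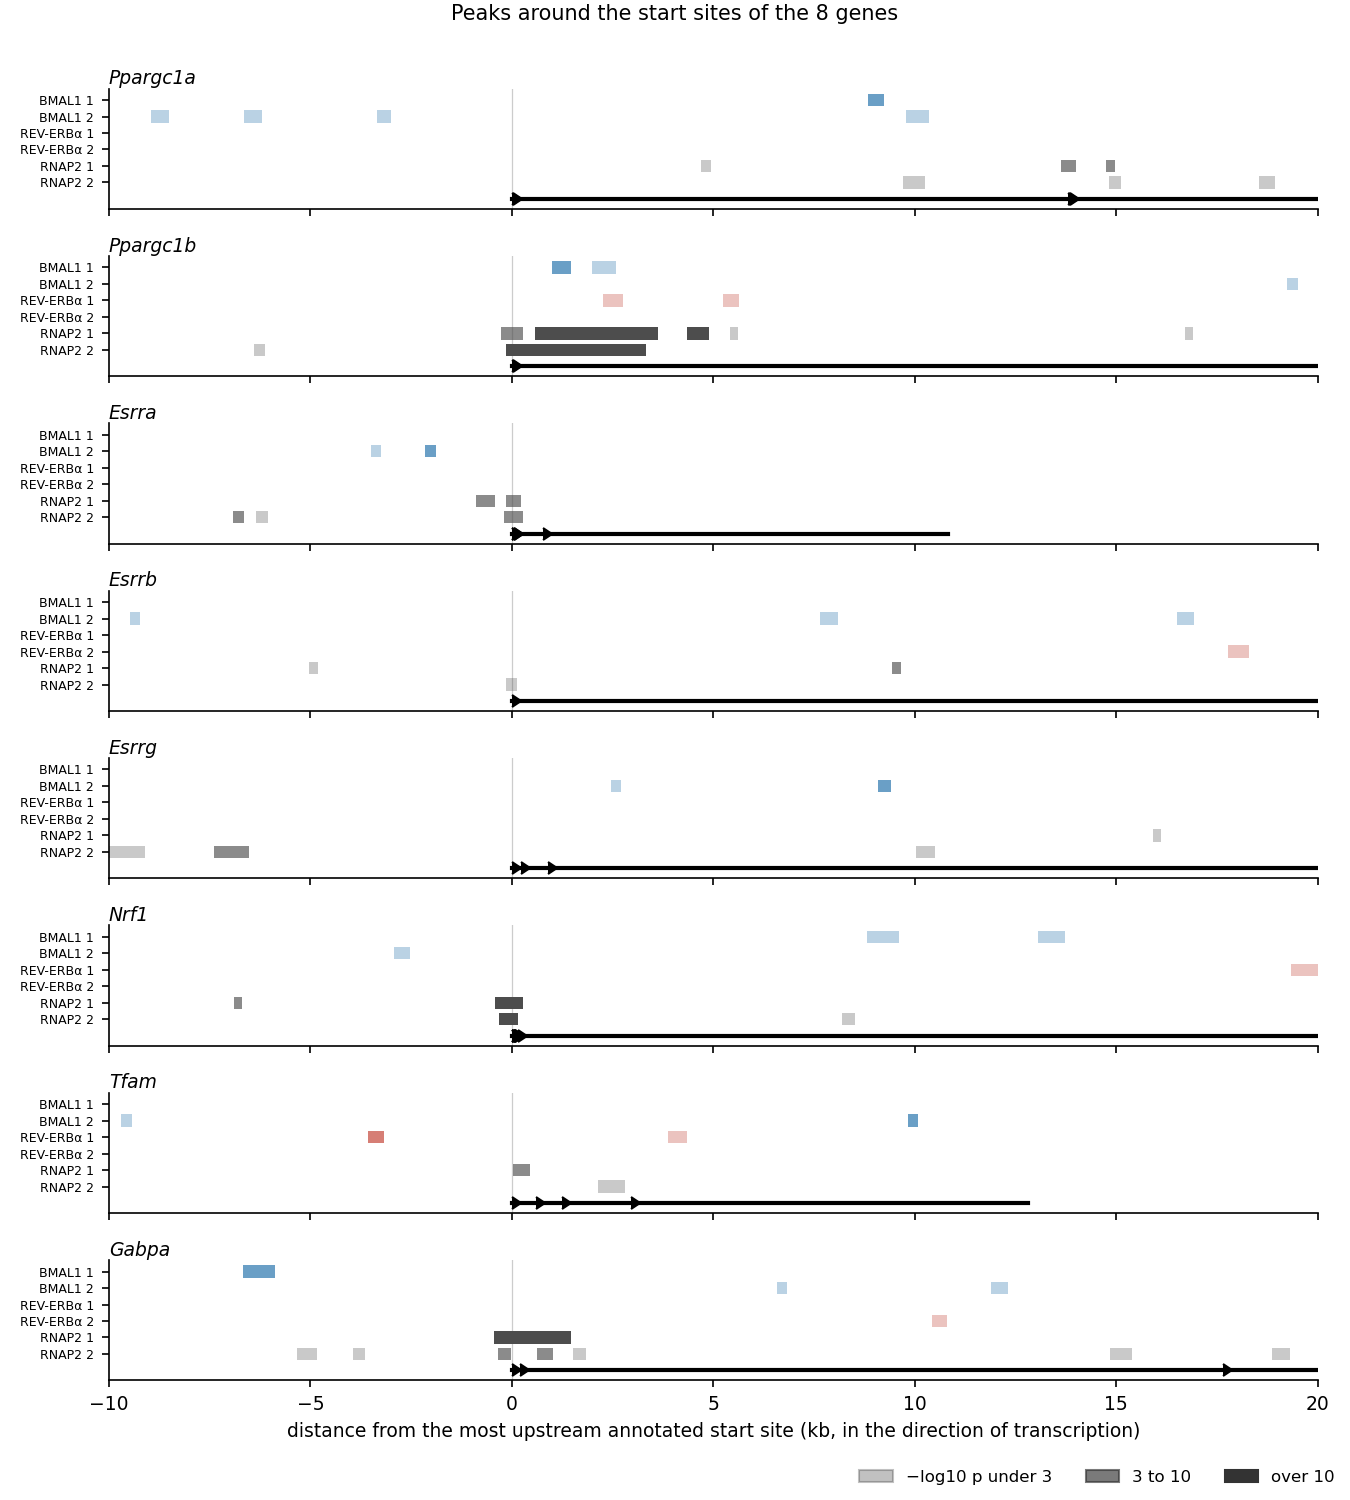
Peaks of the 6 lists (rows, replicates 1 and 2 of each factor) from 10 kb upstream to 20 kb downstream of the most upstream start of each gene; the black line is the gene, arrowheads are annotated starts, and darker bars have a higher −log10 p. RNAP2 bars of both replicates stack at the starts of *Ppargc1b*, *Esrra*, *Nrf1* and *Gabpa*, while BMAL1 and REV-ERBα bars of 2 replicates never stack.

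*Ppargc1a* (chr5:51454250-51567726, minus strand) showed little of any factor. RNAP2 replicate 1 had a peak of −log10 p 4.19 (3.24-fold over background, −log10 q 1.13) with its summit 9 bp upstream of an inner start at 51553891, and replicate 2 had none there. The 1 region of both replicates lay in the intron 979 bp downstream of the inner start (chr5:51552614-51552975), with −log10 p of 3.88 and 1.54, and its value in replicate 2 exceeded only 18.8% of the list. Neither RNAP2 list had a peak within 1 kb of the upstream start. BMAL1 had 3 and 9 peaks, all at −log10 q 0.00, with the highest at 3.44 in an intron in replicate 1 and at 2.40 in replicate 2. The strongest REV-ERBα peak of the 8 genes was here, at 4.15 (2.90-fold, −log10 q 0.03) in replicate 1, in an intron 9096 bp downstream of an inner start, and stronger than 94.7% of its list. Replicate 2 had 1 REV-ERBα peak, at 1.95 and far from it, 65502 bp downstream. REV-ERBα enrichment above this rested on replicate 1 alone.

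*Ppargc1b* (chr18:61298136-61400431, minus strand) had the widest RNAP2 region of the group. It spanned 3893 bp from the start into an intron (chr18:61396802-61400694), with −log10 p of 25.39 and 17.91 and folds of 10.32 and 8.29. The summits lay 2499 bp and 1430 bp downstream of a start and thus 1069 bp apart, and in both lists the peak was stronger than at least 99.5% of peaks. Replicate 1 also split off a peak at the start itself (7.37) and a further one 4490 bp into the gene (10.56). This was the only place among the 8 genes where lists of both clock factors met. A BMAL1 peak of replicate 1 (2.35) overlapped a REV-ERBα peak of replicate 1 (1.77), both inside the RNAP2 region, with summits 2111 bp and 2691 bp downstream of a start. A stronger BMAL1 peak of replicate 1 (4.09, 2.79-fold, −log10 q 0.00) had its summit 1197 bp downstream, also inside it. Replicate 2 had no BMAL1 and no REV-ERBα peak in that region; its strongest ones lay 34728 bp (2.83) and 23276 bp (2.64) downstream. Of all peaks, 11.5% of BMAL1 replicate 1 and 14% of REV-ERBα replicate 1 overlapped an RNAP2 peak, and the part of RNAP2 in the clock peaks here was not tested.

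Among the receptors, *Esrra* (chr19:6910977-6921813, minus strand), which encodes ERRα, had RNAP2 at its start in both replicates. The region was 464 bp wide (chr19:6921544-6922007), with −log10 p of 7.78 and 4.61 (4.81-fold and 3.38-fold) and summits 13 bp apart, 17 and 4 bp downstream of a start just after the NRF1 core shown above. In replicate 2 its −log10 q was 1.16, under the value of 1.3 that a q-value of 0.05 needs. BMAL1 had no peak in replicate 1 and 2 upstream peaks in replicate 2, at 3.26 and 1.40, both nearer to the start of the neighbouring gene *Catsperz*. REV-ERBα had no peak at *Esrra* in either list, the only gene of the 8 of which this was true.

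*Esrrb* (chr12:86361117-86521628, plus strand), whose receptor ERRβ is best known from stem cells and the inner ear, had RNAP2 peaks of at most 4.30 in replicate 1 and 3.26 in replicate 2, none at the same place in both. At its first start replicate 2 alone had a peak, of 2.60. BMAL1 had 2 and 16 peaks, and the highest, 4.25 (3.17-fold), lay just past the 3′ end in replicate 2, with none there in replicate 1. REV-ERBα had 0 and 2 peaks, at most 1.69.

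*Esrrg* (chr1:187608791-188214885, plus strand), which encodes the ERRγ of oxidative muscle and heart, held more peaks than the other genes, in a window of 616.1 kb. In replicates 1 and 2 it had 7 and 48 peaks of BMAL1, 7 and 8 of REV-ERBα, and 28 and 42 of RNAP2. Per 100 kb this came to 1.14 BMAL1 peaks in replicate 1 and 7.79 in replicate 2, against 1.49 and 7.43 for all genes with windows over 200 kb. For REV-ERBα it was 1.14 and 1.3, against 1.21 and 1.26. The RNAP2 values were 4.54 and 6.82, against 3.51 and 6.76. The strongest BMAL1 peaks were 4.12 in replicate 1 and 4.86 in replicate 2, the highest clock value of the 8 genes, and both lay in introns far from each other. The strongest REV-ERBα peaks were 3.02 and 3.18. RNAP2 overlapped between replicates at 2 intronic places, at 2.34 and 1.33 and at 2.50 and 1.45, 100773 and 172809 bp from a start, and no RNAP2 list had a peak within 1 kb of an *Esrrg* start.

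*Nrf1* (chr6:30047988-30153458, plus strand) had the highest RNAP2 peak of the 8 genes. Its region (chr6:30047575-30048254) covered the start, with −log10 p of 41.25 and 13.36 (15.04-fold and 6.30-fold), and the summits of the replicates were 1 bp apart, 61 and 60 bp upstream of the first start and within the sequence shown above. No clock list had a peak there. BMAL1 had 3 and 5 peaks. The strongest of replicate 2 (2.92) lay 193 bp upstream of an inner start, and that of replicate 1 (2.48) lay 27936 bp downstream of another inner start. REV-ERBα had 1 peak in replicate 1 (1.33, stronger than 0.1% of its list) and none in replicate 2.

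*Gabpa* (chr16:84834925-84863779, plus strand) starts back to back with *Atp5j*, which encodes a coupling subunit of ATP synthase, and its RNAP2 region cannot be assigned to one of them. The region spanned 1920 bp (chr16:84834480-84836399), with −log10 p of 11.32 and 6.34 (6.07-fold and 3.84-fold). The replicate 1 summit was 43 bp downstream and the replicate 2 summit 202 bp upstream of the *Gabpa* start, and the start nearest to the replicate 1 summit was one of *Atp5j*, at 37 bp. BMAL1 replicate 1 had 1 peak, 2.45-fold over background and stronger than 73.3% of its list, whose summit was 18 bp from another *Atp5j* start, and BMAL1 replicate 2 had none there. The strongest of the 3 BMAL1 peaks of replicate 2 lay just past the 3′ end of the gene, at 3.60 (2.88-fold, stronger than 94.6% of its list). REV-ERBα had 0 and 1 peaks, the latter at 1.40.

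*Tfam* (chr10:71225464-71238280, minus strand) had RNAP2 at its start in replicate 1 alone. Replicate 1 had a peak of 9.46 (5.03-fold, −log10 q 5.85) 226 bp downstream of the outermost start and near the GABP letters shown above. Replicate 2 had 1 peak in the whole window, of 1.99, elsewhere, in an intron 356 bp upstream of an inner start. REV-ERBα replicate 1 had a peak of 3.02, 3417 bp upstream, and a weaker one of 1.73-fold in an intron, and replicate 2 had none. BMAL1 had none in replicate 1, and in replicate 2 a peak of 3.43 in an exon near the 3′ end and one of 1.81 nearer to *Ube2d1*.

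**Figure D3:**
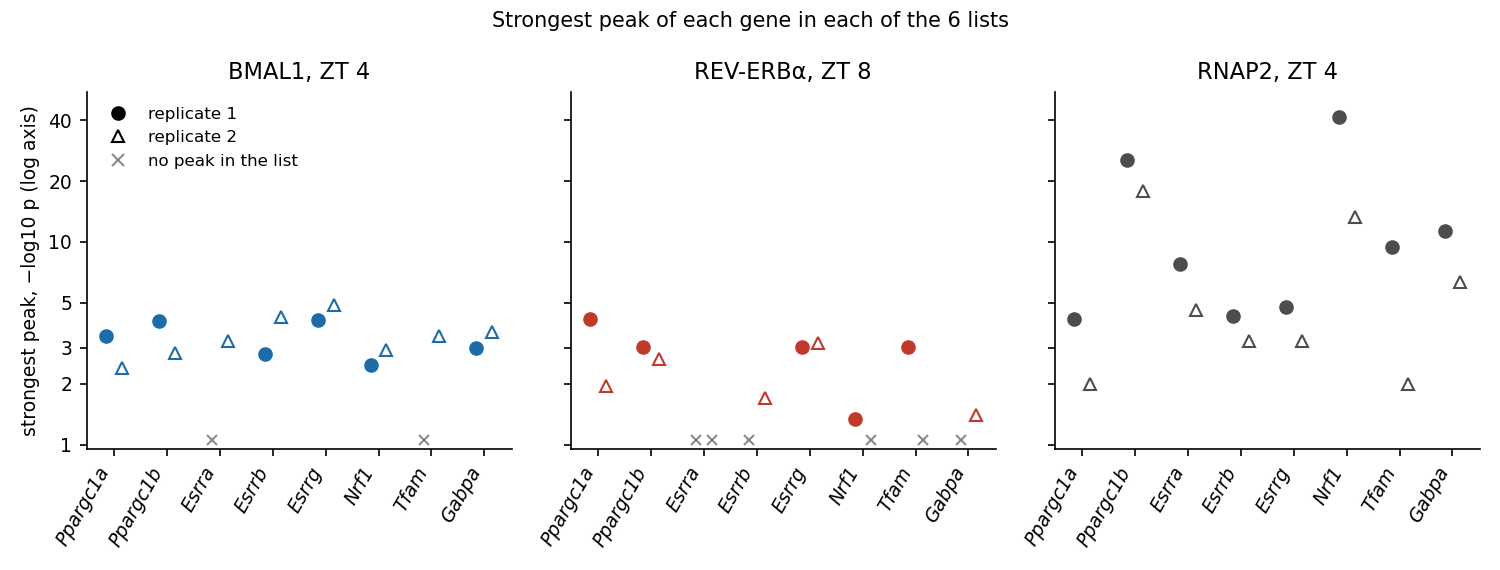
Strongest peak (−log10 p, log axis) in the window of each gene in each list; circles are replicate 1, open triangles replicate 2, and crosses mark lists with no peak in the window. The 2 symbols of a gene need not be the same place. BMAL1 and REV-ERBα stay under 5 at every gene, and RNAP2 reaches 41.25 at *Nrf1* and 25.39 at *Ppargc1b*.

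Ordered by the weaker replicate's −log10 p at the strongest region of each window, which in a longer window is drawn from more sequence, the RNAP2 regions ran from *Ppargc1b* (17.91) over *Nrf1* (13.36), *Gabpa* (6.34), *Esrra* (4.61) and *Ppargc1a* (1.54) to *Esrrg* (1.45). The values of neighbours overlapped between *Ppargc1b* and *Nrf1*, whose order turned round in replicate 1, between *Gabpa* and *Esrra*, and between *Ppargc1a* and *Esrrg*. With windows of 20 kb around each TSS a stronger region, of 8.69, entered at *Esrra* and placed it above *Gabpa*, which stayed at 6.34. They did not overlap between *Nrf1* and *Gabpa* or between *Esrra* and *Ppargc1a*. An RNAP2 region lay at 9027 protein-coding genes, of which 95.9% had a weaker strongest region than *Ppargc1b*, 92.3% than *Nrf1*, 67.3% than *Gabpa*, 50.8% than *Esrra*, 3.2% than *Ppargc1a* and 0.7% than *Esrrg*. At ZT 4 *Ppargc1b* stood far above *Ppargc1a*, and *Esrra* above *Esrrg*. *Esrrb* has no place in this order, and its strongest RNAP2 peaks in the lists, 4.30 and 3.26, were close to the 4.79 and 3.26 of *Esrrg*.

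The clock peaks at these genes were typical of their lists or, in REV-ERBα replicate 2, weaker. None of the 138 BMAL1 and REV-ERBα peaks reached a q-value of 0.05, and 1 had a −log10 q above 0. The median −log10 p at the 8 genes equalled that of the list for BMAL1 replicate 1 (2.48) and REV-ERBα replicate 1 (2.50), was 1.92 against 1.87 for BMAL1 replicate 2, and was lower, 1.95 against 2.59, for REV-ERBα replicate 2. A −log10 p of 3 or more was reached by 6 of 18 and 10 of 90 BMAL1 peaks and by 6 of 15 and 1 of 15 REV-ERBα peaks. The weakest peak so counted was stronger than 73.3% and 93.8% of the BMAL1 lists in replicates 1 and 2. For REV-ERBα it was stronger than 73.8% and 74.7%. The shares of the whole lists that reach 3 were not counted. Of the 138 clock peaks, 121 lay in introns, 10 upstream, 3 downstream and 4 in exons. The summit of 4 lay within 1 kb of a start of the gene. The windows are mostly gene body (606095 of 616095 bp at *Esrrg*), and these places were not compared with those of all peaks. After merging across the 4 clock lists, 136 sites held peaks of 1 list and 1 site, the *Ppargc1b* intron, peaks of 2 lists. No site had peaks in 3 lists or more, of 550 in the genome, and such a site lay in the window of only 1.62% of all genes.

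Per length, the 8 windows held about as many clock peaks as those of other genes. Over the 1226.8 kb of the 8 windows, BMAL1 had 1.47 and 7.34 peaks per 100 kb, against 1.40 and 7.84 in the windows of all genes. REV-ERBα had 1.22 and 1.22 against 1.23 and 1.32, and RNAP2 had 3.99 and 6.93 against 4.44 and 7.19. The genome held only 2742 BMAL1 and 1263 REV-ERBα regions of both replicates. Distances to the nearest of them were not taken for other genes, so those below have no background. For BMAL1 the distance from the gene's own nearest start ran from 157.9 kb at *Esrra*, where the region was closest to *Macrod1*, to 2472.1 kb at *Ppargc1a*. For REV-ERBα it ran from 244.7 kb at *Ppargc1b*, closest to *Il17b*, to 3287.9 kb at *Ppargc1a*.

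**Figure D4:**
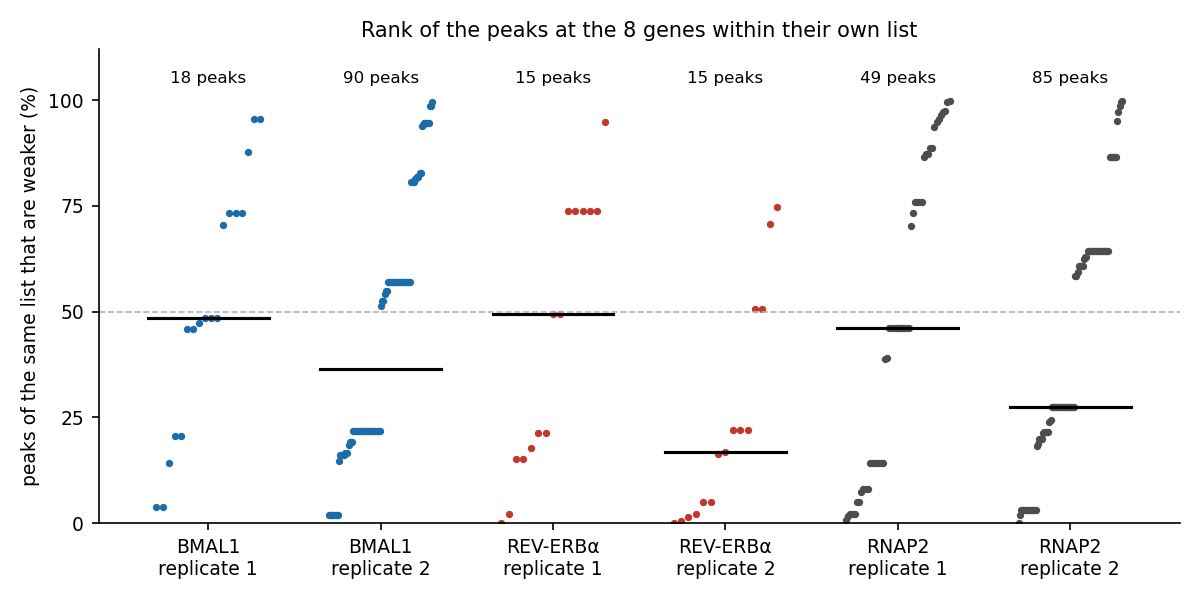
Each point is a peak at one of the 8 genes, placed by the share (%) of peaks in its own list that are weaker, where peaks of equal −log10 p do not count as weaker; black bars are medians and the dashed line is 50%. Points form steps because many peaks share a value, and the highest points in the RNAP2 columns are the start regions of *Nrf1* and *Ppargc1b*.

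The sequence under the clock peaks was read within 100 bp of each summit, a window of 201 bases. CACGTG was present at 0 of 18 BMAL1 peaks of replicate 1, where 1.72% of the list had it, and at 4 of 90 of replicate 2, where 2.23% had it. AGGTCA was present at 4 of 18 and 7 of 90 BMAL1 peaks (9.58% and 11.9% of the lists) and at 2 and 4 of 15 REV-ERBα peaks (11.5% of either list). The longer ERR and REV-ERB elements were at none of these peaks. The BMAL1 peaks of replicate 2 with an E-box lay at *Ppargc1a*, *Esrrg* and *Nrf1*, and 42 bases around each are shown with the E-box in capitals, since they are the E-boxes within 100 bp of a clock summit. Both *Esrrg* stretches lie inside their peaks, and the *Ppargc1a* and *Nrf1* stretches lie outside the bounds of theirs. They run on the strand of the gene. At *Nrf1* a second E-box follows, beginning 72 bases before the summit, against 92 for the one printed.
*Ppargc1a* intron (chr5:51477238-51477279, minus strand; peak −log10 p 1.66): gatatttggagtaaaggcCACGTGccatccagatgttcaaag
*Esrrg* intron, peak 1 (chr1:187875173-187875214, plus strand; peak −log10 p 2.40): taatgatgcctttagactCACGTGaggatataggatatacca
*Esrrg* intron, peak 2 (chr1:188114299-188114340, plus strand; peak −log10 p 3.60): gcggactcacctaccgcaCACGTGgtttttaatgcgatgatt
*Nrf1* intron (chr6:30069153-30069194, plus strand; peak −log10 p 1.87): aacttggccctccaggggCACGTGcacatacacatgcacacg

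The summits of the strongest clock peaks are given with 40 bases to each side as the letters under the most enriched places. The highest BMAL1 value, at *Esrrg*, and the highest REV-ERBα value, at *Ppargc1a*, had none of the 8 motifs in the 81 bases, and the BMAL1 peak past the end of *Esrrb* had AGGTCA (capitals), beginning 36 bases before its summit.
*Esrrg* BMAL1 replicate 2, 4.86 (chr1:188184166-188184246, plus strand): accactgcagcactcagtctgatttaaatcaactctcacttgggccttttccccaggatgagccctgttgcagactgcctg
*Esrrb* BMAL1 replicate 2, 4.25 (chr12:86521702-86521782, plus strand): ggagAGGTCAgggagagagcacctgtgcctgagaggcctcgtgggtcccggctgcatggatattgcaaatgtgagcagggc
*Ppargc1a* REV-ERBα replicate 1, 4.15 (chr5:51544735-51544815, minus strand): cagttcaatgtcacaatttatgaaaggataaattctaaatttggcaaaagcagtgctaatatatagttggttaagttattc
None of these peaks had a peak of the other replicate on it.

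A further 66 genes of the pathway were examined in 4 lists named by function: 20 partners and upstream inputs of PGC-1, 10 partners of GABP and other regulators, 16 genes for transcription and replication of mitochondrial DNA, and 20 known targets of PGC-1 and ERR. The lists were also chosen with earlier results of these data known, so their shares are not independent of those results. RNAP2 had a region in both replicates at 18, 8, 10 and 17 of them, 53 in all or 80.3%, against 41.1% of all genes, and at 50 a region lay within 1 kb of a TSS. Genes without one included *Prkaa1*, for an AMPK catalytic subunit, and 6 of the 16 mitochondrial DNA genes. REV-ERBα had a region at 2, 4, 3 and 3 genes, 12 in all or 18.2% (4.44% of all genes), and at 5 within 1 kb of a TSS. BMAL1 had one at 5, 1, 1 and 2, 9 in all or 13.6% (6.81%), and at none within 1 kb. Regions are counted for every gene whose window they fall in, and for 6 of the 12 REV-ERBα and 3 of the 9 BMAL1 genes the strongest region was nearer to the start of another gene.

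With a q-value of 0.05 in both replicates, REV-ERBα regions lay at 2 of the 66 genes (1.37% of all genes) and BMAL1 regions at none (0.109%). *Mterf3*, a regulator of mitochondrial transcription, had by far the strongest REV-ERBα region of the lists, at −log10 p 23.77 and 36.88, 111 bp upstream of its start and nearer still to the start of *Ptdss1*. *Slc2a4*, which encodes the insulin-responsive glucose transporter GLUT4, had 2 REV-ERBα regions. The stronger, at 6.08 and 5.94, lay 7834 bp from its start and nearest to *Ybx2*, and the other within 1 kb of a start of *Slc2a4*. *Thra*, a thyroid hormone receptor gene, followed with 4.62 and 4.99 at a region nearest to *Nr1d1*, which overlaps it on the other strand. Ranked by the lower value of the replicates, the top BMAL1 regions were weaker. *Atf2*, which encodes a CREB family factor that acts on *Ppargc1a*, had 3.54 and 2.98. Both *Dnm1l*, a mitochondrial fission gene, and *Esr1*, the estrogen receptor α gene, had 2.48 and 2.98. *Tefm*, of the mitochondrial DNA list, had 4.74 in replicate 1 but 2.40 in replicate 2.

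**Figure D5:**
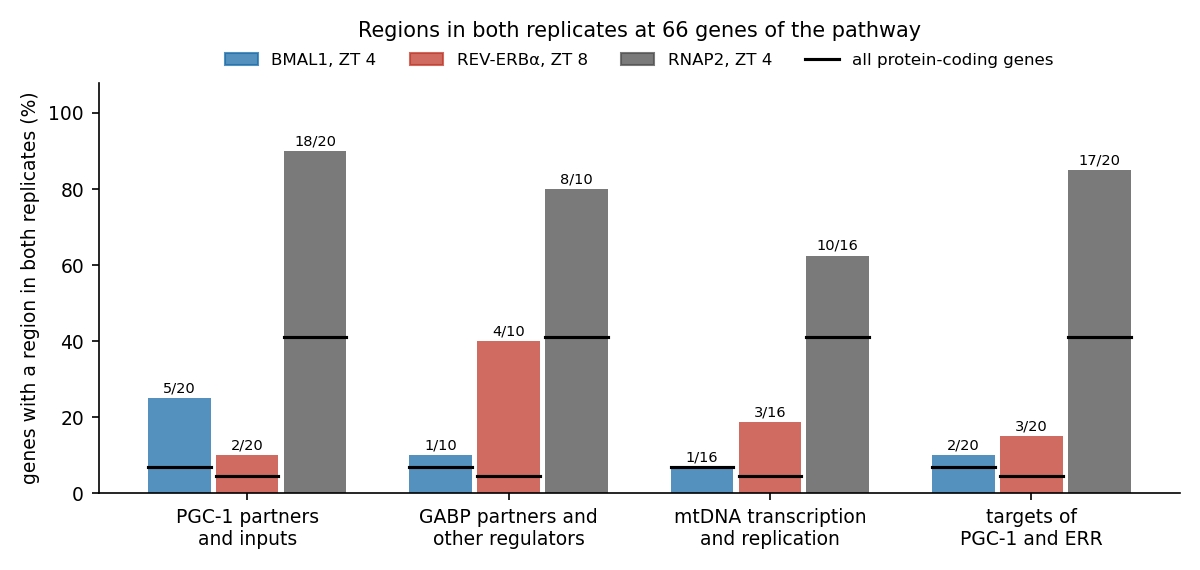
Share of genes (%) in the 4 pathway lists with a region in both replicates, by factor, with counts over the bars; black lines are the shares of all protein-coding genes (6.81% BMAL1, 4.44% REV-ERBα, 41.1% RNAP2). RNAP2 bars are above their line in every list, and the highest clock bar is REV-ERBα at 4 of 10 GABP partners and other regulators.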

How the data were processed

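Peak lists of 6 ChIP-seq samples of gastrocnemius were used (2 replicates per factor). The authors mapped reads to mm10 with BWA MEM, discarded duplicates and reads with several matches, down-sampled the replicates and called peaks on each sample against input DNA with MACS2 2.1.1 at a p-value cutoff of 0.05, without pooling. The deposited −log10 p and −log10 q are those of the peak's summit, and the deposited fold is the ratio of signal to local background there. The deposited score, a rescaled −log10 p, was not used. The input has no list here, and reads and coverage tracks were not analysed.

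Peaks were joined to GENCODE M21 genes in Python 3.11.15 with numpy 2.4.6, and plots were drawn with matplotlib 3.10.9. Regions were made by merging peaks with 1 bp or more in common, and 9 RNAP2 peaks on unplaced sequences were left out. The strength of a region is the lower −log10 p of its replicates. Merging was tested on simulated lists and recovered 5 of 5 trials. Shares of all genes use the 21938 protein-coding genes, and motifs were searched as exact letters in GRCm38. The member genes and pathway lists were chosen with earlier results of these data known. Pathway genes named are those with a BMAL1 or REV-ERBα region at −log10 q of 1.3 in both replicates or, since fewer than 3 had one, the 3 with the highest lower −log10 p for each factor; genes named beside a peak are those of the nearest start. Genes of similar pattern were to be named for members with a clock region in both replicates, of which there were none. Alternatives were other distances, stricter thresholds, equal list sizes, other overlap rules and leaving out each replicate.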

Additional observations from a re-analysis of the deposited data

How the results depend on the processing

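The counts of 0 for BMAL1 and REV-ERBα at the 8 genes were also 0 with windows of 5 or 20 kb, with start windows alone, with −log10 q of 1.3 or −log10 p of 3 in every list, with lists shortened to the 28881 strongest peaks, with summits within 200 bp and with overlap of 50% of the shorter peak. Only the 20 kb windows and the summit rule could have raised these counts. The other settings keep a part of the main windows, peaks or overlaps, so a count of 0 stays 0. The counts rest on the demand for both replicates. With 1 replicate at a time, BMAL1 peaks lay at 6 to 8 genes (18 to 90 peaks), against 38.2% and 84.4% of all genes. Within 1 kb of a TSS they lay at 1 to 2 genes, against 7.17% and 29.5%. REV-ERBα peaks lay at 5 genes by either replicate (15 peaks), against 38.7% and 40.1%. Within 1 kb they lay at 1 gene, against 8.17% and 8.73%. No site was in 3 of the 4 clock lists under any alternative, including without each list in turn (0). Of these alternatives only the 20 kb windows, with such a site at 2.07% of all genes, could have raised the count. For RNAP2, 6 genes and 7 regions became 3 and 3 with −log10 q of 1.3 (3 within 1 kb, against 5) and 3 and 3 with summits within 200 bp (2 within 1 kb), close to the 35.6% and 26.5% of all genes, where *Ppargc1b*, *Gabpa* and *Ppargc1a* were lost because their summits lay more than 200 bp apart. Regions numbered 4, at 4 genes, with −log10 p of 3 (29.4% of all genes) and with equal list sizes (30.1%). All 4 genes had one within 1 kb of a TSS, against 23.8% and 24.6%. With 1 replicate alone regions numbered 49 to 85, and 8 genes had a peak, as did 76.9% and 86.5% of all genes. With windows of 20 kb a stronger region, of 8.69, entered at *Esrra* (4.61 before), above *Gabpa*. No paired analysis was possible because no result comes from a test. The unknown depth at each peak limits these counts: a peak missing from a list does not show that the factor was absent.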
